A study of Bos taurus with 10 samples.

Results

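The genes of mitochondrial ribosomal proteins were taken as every row of the deposited expression table whose symbol began with Mrpl or Mrps followed by a digit. The rule found 77 of the 21130 genes, 48 with an Mrpl symbol and 29 with an Mrps symbol. By the role of the protein, 50 encode parts of the large ribosomal subunit and 26 parts of the small subunit. The exception by role is Mrps36, which is now known as a subunit of the oxoglutarate dehydrogenase complex. Mrps30 and Mrps18a carry small-subunit names but sit in the large subunit. Mrpl58 was listed under its older symbol Ict1 and so fell outside the rule.

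Mitochondria keep their own ribosomes, which translate the few mRNAs of mitochondrial DNA into subunits of the respiratory chain. The ribosomal RNAs of these ribosomes come from mitochondrial DNA, whereas every protein subunit is encoded in the nucleus, translated in the cytosol and imported. Some subunits descend from proteins of bacterial ribosomes and others were added during the evolution of mitochondria. Skeletal muscle is rich in mitochondria and depends on their translation for oxidative metabolism.

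The series was set up to compare muscle mRNA of cattle that differ in MSTN, which encodes myostatin, an inhibitor of muscle growth. The labels give 7 libraries the genotype MSTN+/-, with 1 altered copy of the gene, and 3 libraries the wild-type genotype. All 10 are labelled as muscle of cattle aged 24 months, frozen in liquid nitrogen, extracted with Trizol and sequenced on Illumina libraries. The labels name neither the alteration nor the number of animals, so p-values measure the spread between libraries, part of which may be technical.

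The table did not match those labels. Of the 77 genes, 76 were described as genes of Mus musculus, and 0 of their identifiers and 0 of their 95 transcript accessions were found in a RefSeq gene table of cattle (ARS-UCD2.0). All 77 symbols also exist as cattle symbols when case is ignored, which cannot tell the species. The groups are therefore named by their labels, and no difference is assigned to a genotype, a species or muscle. In bulk RNA, fewer cells of a type and less RNA per cell cannot be told apart.

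The values are FPKM (read fragments per transcript length, adjusted for the mapped total of each library). Totals ran from 402716 FPKM in wild-type replicate 1 to 464418 FPKM in MSTN+/- replicate 3, and estimated relative depth ran from 1 to 1.20. Mstn itself was between 0 and 0.18 FPKM in all 10 libraries, which is too low to check the labels. Of 12 skeletal muscle markers, 3 (Ttn, Myh4 and Myh7) stayed below 1 FPKM in every library, and the 12 summed to 16.3 to 33.2 FPKM in libraries labelled MSTN+/- and to 39.1, 17.6 and 16.7 FPKM in wild-type replicates 1, 2 and 3. Over 10 pluripotency markers the sums were 906 to 1562 FPKM in libraries labelled MSTN+/- and 2.29, 2711 and 3095 FPKM in the respective wild-type replicates. Over 10 fibroblast markers they were 3433 to 6497 FPKM in libraries labelled MSTN+/- and 7534, 617 and 525.9 FPKM in the respective wild-type replicates. Endothelial, macrophage, adipocyte and lymphocyte marker lists each stayed at or below 44.7 FPKM in sum. No marker of these 7 lists found in the table was at 0 in all 10 libraries. Wild-type replicate 1 thus stood apart from wild-type replicates 2 and 3, and results are given with and without it.

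Mitochondrial ribosomal protein genes were expressed in every library at moderate and fairly even levels. All 77 reached 1 FPKM in at least 3 libraries and were tested. Their means over the 10 libraries ran from 7.10 to 93.0 FPKM, with a median of 31.0 and quartiles of 20.4 and 40.2 FPKM. Of the 77, 73 lay above the median of the 14047 genes tested, and 80.8% of tested genes lay below the median gene of the family. The median SD of a gene over the 10 libraries, on the log2(FPKM + 1) scale, was 0.28 for the family and 0.44 for all tested genes. Within the MSTN+/- libraries it was 0.12 against 0.17, and within the wild-type libraries 0.38 against 0.46.

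The mean of the family on the log2(FPKM + 1) scale was 4.83, 4.90, 4.88, 4.83, 4.77, 4.86 and 4.67 in MSTN+/- replicates 1 to 7. It was 4.49 in wild-type replicate 1, 5.17 in wild-type replicate 2 and 5.16 in wild-type replicate 3. The 7 MSTN+/- libraries therefore lay between the wild-type libraries, below replicates 2 and 3 and above replicate 1. Over all 14047 tested genes the mean was also lowest in wild-type replicate 1 (3.16). That library was 0.29 below the 10-library mean over all tested genes and 0.37 below it in the family. Wild-type replicates 2 and 3 (3.33 and 3.28) were below the MSTN+/- libraries (3.48 to 3.62) over all tested genes, unlike in the family. The group means were 4.82 ± 0.077 (SD, n = 7) and 4.94 ± 0.39 (SD, n = 3), so the groups differed by less than the spread between the wild-type libraries. As a mean level, the family stood at 32.3 ± 1.57 FPKM (SD, n = 7) over libraries labelled MSTN+/- and at 25.5, 41.2 and 40.8 FPKM in the respective wild-type replicates. Those 3 values were 0.788, 1.27 and 1.26 times the MSTN+/- mean. The family made up 0.501 to 0.573% of total FPKM in the MSTN+/- libraries and 0.487, 0.697 and 0.691% in the wild-type replicates, the same order as the mean levels. Pluripotency markers were higher and fibroblast markers lower in wild-type replicates 2 and 3, where the family mean was high, than in wild-type replicate 1, and the part of cell composition in this order was not tested.

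**Figure D1:**
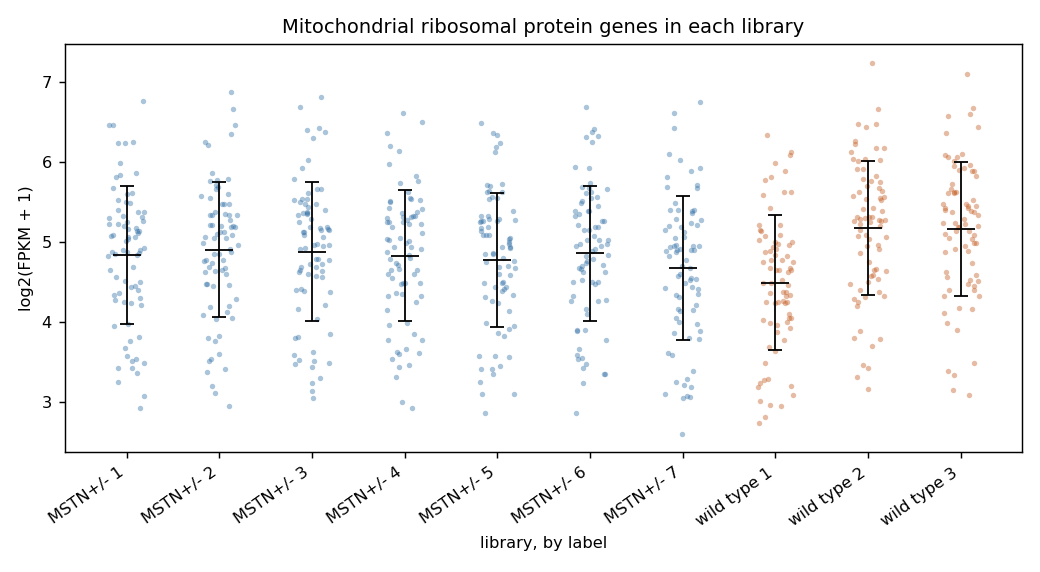
Level of each of the 77 mitochondrial ribosomal protein genes, as log2(FPKM + 1), in the 10 libraries; each dot is 1 gene, the horizontal bar is the mean over genes and the whiskers are 1 SD over genes. The mean is lowest in wild-type replicate 1 (4.49), highest in wild-type replicates 2 and 3 (5.17 and 5.16) and between 4.67 and 4.90 in the MSTN+/- libraries.

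The order was then read gene by gene. In 45 of the 77 genes (58.4%), wild-type replicates 2 and 3 were both above the other 8 libraries, an order found in 29.4% of all tested genes. In 53 genes (68.8%), wild-type replicate 1 was below the other 9 libraries, against 31.3% of all tested genes. Both orders held at once in 29 genes (37.7%), against 12.7% of all tested genes. The reverse orders held in few genes of the family. Wild-type replicates 2 and 3 were both below the other 8 libraries in 3 genes (Mrpl54, Mrps21 and Mrps6), against 30.8% of all tested genes. Wild-type replicate 1 was above the other 9 libraries in 1 gene (Mrps6), against 13.8% of all tested genes.

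Members that left the family mean were found by their departure, the deviation of a gene from its own 10-library mean minus the same deviation averaged over the 77 genes. Departures were small in the MSTN+/- libraries, with an SD over genes of 0.11 to 0.22 on the log2 scale. They were wider in wild-type replicates 1, 2 and 3, with SDs of 0.27, 0.43 and 0.41. Part of this contrast is built in, because 7 of the 10 libraries in each gene's reference mean are MSTN+/-. Mrps6, a small-subunit protein with a bacterial homologue, had the largest SD of departure over libraries (0.68), with departures of 1.26, -1.21 and -0.88 in wild-type replicates 1, 2 and 3. It moved against the family in each of those libraries. Mrps5 (SD 0.53) moved with the family and further than it, with departures of -0.19, 0.96 and 0.92. Mrpl14 (0.44), Mrpl52 (0.41) and Mrps21 (0.40) had negative departures of -0.65 or lower in wild-type replicates 2 and 3. Mrpl15 (0.43), Mrps18b (0.40) and Mrps31 (0.40) had positive ones there, of 0.63 or higher. Mrpl12, the stalk protein of the large subunit that also binds the mitochondrial RNA polymerase, stayed near the family mean, with an SD of departure of 0.09.

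**Figure D2:**
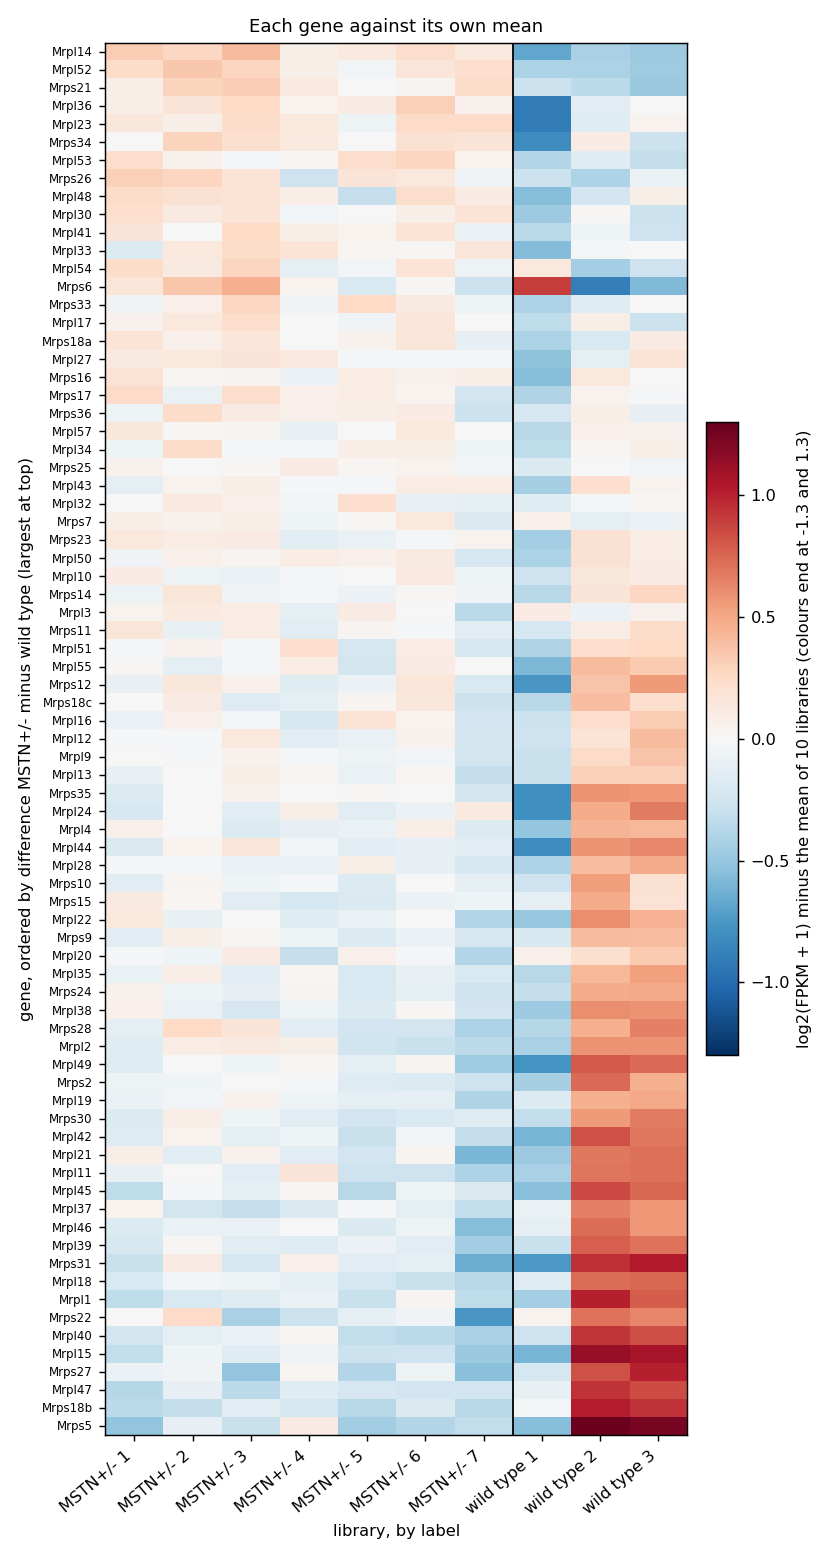
Heat map of the 77 genes (vertical axis, ordered by the difference between MSTN+/- and wild-type libraries) in the 10 libraries (horizontal axis); colour is log2(FPKM + 1) minus the gene's own mean over the 10 libraries. Wild-type replicate 1 is blue in most genes and wild-type replicates 2 and 3 are red in most, with Mrps6 reversed. Mrpl14, Mrpl52 and Mrps21, at the top, are low in all 3 wild-type libraries.

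The comparison of the labelled genotypes was fitted with limma across all 14047 tested genes, with p-values adjusted over all of them and a threshold of 0.05. In the family, 9 genes were higher in the MSTN+/- libraries, where 31.8% of all tested genes were called higher. Another 9 were lower, where 12.8% of all tested genes were called lower, and 59 did not pass. Each count is 11.7% of the family, so the share called higher was below that of all genes and the share called lower was close to it. The median difference, MSTN+/- minus wild type, was -0.15 on the log2 scale in the family and 0.17 over all tested genes. Groups did not overlap in 7 genes: all MSTN+/- values were above all wild-type values in Mrpl14, Mrpl36, Mrpl52, Mrpl53 and Mrps21, and below them in Mrpl47 and Mrps18b. The first order held in 25.2% and the second in 6.86% of all tested genes.

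These counts depended on which wild-type library entered. Without wild-type replicate 1, limma called 7 genes higher and 44 lower, against 42.2% and 31.9% of all tested genes, and the median difference was -0.36 against 0.15 over all genes. With wild-type replicate 1 as the only wild-type library, assumed to vary like the others, limma called 33 higher and 1 (Mrps6) lower, against 33.7% and 10.8% of all tested genes. The median was then 0.34, against 0.26 over all genes. Without wild-type replicate 2 it called 9 higher and 2 lower, against 25.2% and 5.71% of all tested genes, and without wild-type replicate 3 again 9 and 2, against 24.8% and 5.70%. These fits share the MSTN+/- libraries. Scaling moved the balance of calls too, from 9 higher and 9 lower to 3 and 32 after median-of-ratios scaling, where 23.2% and 23.0% of all tested genes were called higher and lower. Both TPM rescaling and quantile normalization gave 8 higher and 17 lower. Over all tested genes the shares were 28.9% higher and 16.4% lower with TPM, and 22.0% and 24.9% with quantile normalization, so the lower count of the family was above the background with the former and below it with the latter. Library weights, which give less weight to libraries that scatter more, gave 5 higher and 31 lower, against 34.6% and 24.0% of all tested genes. The estimate of these weights stopped before it converged.

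By subunit and ancestry, the counts are read against the same shares of all tested genes (31.8% higher and 12.8% lower, or 42.2% and 31.9% without wild-type replicate 1). Of the 50 large-subunit genes, 7 were higher and 6 lower by limma, with a median difference of -0.16, and without wild-type replicate 1 the counts were 5 and 29. Of the 26 small-subunit genes, 2 were higher and 3 lower, with a median of -0.10, and without wild-type replicate 1 the counts were 2 and 15. Among the 46 genes with a bacterial homologue, 5 were higher and 2 lower (median -0.15), and without wild-type replicate 1 the counts were 3 and 29. Among the 30 mitochondrion-specific genes, 4 were higher and 7 lower (median -0.11), and without wild-type replicate 1 the counts were 4 and 15. The larger share called lower was thus in the mitochondrion-specific genes with all libraries and in the bacterial homologues without that library. In every class the share called higher was below that of all genes. No test of a difference between these classes was run.

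In the large subunit, 4 genes were higher in every MSTN+/- library than in any wild-type library. Values of the wild-type group are given below for replicates 1, 2 and 3 in this order, and values of the MSTN+/- group as the lowest, the median and the highest library. Mrpl14 (gene identifier 68463), a protein at the face that meets the small subunit, stood at 17.9, 21.6 and 20.8 FPKM in the wild-type group and at 30.8, 34.5 and 39.2 FPKM in the MSTN+/- group. All 7 MSTN+/- values were above all 3 wild-type values, and the means were 34.4 ± 3.02 (SD, n = 7) and 20.1 ± 1.92 FPKM (SD, n = 3). The limma difference was 0.75 on the log2 scale (SE 0.11, adjusted p = 0.000383), the largest in the family. Mrpl52 (68836), a mitochondrion-specific protein, was the most abundant of the 77 genes per length. It stood at 68.4, 68.5 and 65.7 FPKM in the wild-type group and at 88.6, 106 and 116 FPKM in the MSTN+/- group, again with no overlap. Its limma difference was 0.61 (SE 0.10, adjusted p = 0.000887), between means of 104 ± 9.24 (SD, n = 7) and 67.5 ± 1.58 FPKM (SD, n = 3).

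Mrpl36 (94066), the counterpart of bacterial L36, stood at 18.2, 31.9 and 35.2 FPKM in the wild-type group and at 36.3, 38.0 and 43.9 FPKM in the MSTN+/- group. The groups did not overlap, but the highest wild-type value was close to the lowest MSTN+/- value, and the limma difference was 0.50 (SE 0.18, adjusted p = 0.0425). Mrpl53 (68499), a mitochondrion-specific protein, stood at 18.0, 21.1 and 19.0 FPKM and at 23.3, 24.7 and 29.1 FPKM, with no overlap and a limma difference of 0.40 (SE 0.10, adjusted p = 0.0107). Mrpl36 missed the threshold without any 1 of the 7 MSTN+/- libraries (limma adjusted p 0.055 to 0.0751), or when wild-type replicate 1 was left out (0.053). With all libraries it also missed it after median-of-ratios scaling (difference 0.29, limma adjusted p 0.146), with library weights (0.23, 0.235) and with no low-value filter (0.0528). Mrpl53 stayed past it whichever library was left out, and missed it after median-of-ratios scaling (0.20, 0.154) and with library weights (0.0608).

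Overlap between the groups marked the other large-subunit genes that were called higher. Mrpl23 (19935), which lines the exit of the peptide tunnel, stood at 26.3, 44.99 and 51.9 FPKM in the wild-type group and at 48.0, 56.0 and 59.9 FPKM in the MSTN+/- group, with a limma difference of 0.49 (SE 0.18, adjusted p = 0.0477). Mrpl30 (107734) stood at 53.4, 75.3 and 60.9 FPKM and at 72.3, 80.5 and 86.8 FPKM, with a limma difference of 0.35 (SE 0.12, adjusted p = 0.0325). Mrpl41 (107733) stood at 7.08, 8.92 and 7.51 FPKM and at 8.78, 9.85 and 11.3 FPKM, with a limma difference of 0.32 (SE 0.11, adjusted p = 0.0375). In each of them 1 wild-type library reached into the MSTN+/- range. Mrpl23 missed the threshold without any 1 of the 7 MSTN+/- libraries (limma adjusted p 0.0514 to 0.0808), without wild-type replicate 1 (0.0802) and without wild-type replicate 2 (0.0637). Mrpl30 missed it without MSTN+/- replicates 1, 2, 3, 6 or 7 (0.0527 to 0.06), without wild-type replicate 1 (0.0509) or without wild-type replicate 3 (0.102), and Mrpl41 without MSTN+/- replicates 1 to 6 (0.0525 to 0.0717) or without wild-type replicate 3 (0.113). Median-of-ratios scaling also ended the limma calls of Mrpl23 (difference 0.28, adjusted p 0.161), Mrpl30 (0.14, 0.315) and Mrpl41 (0.13, 0.333). Library weights ended those of Mrpl23 (0.16, 0.416) and Mrpl41 (0.0748), and no low-value filter those of Mrpl23 (0.0596) and Mrpl41 (0.0509). Mrpl41 further missed the threshold after quantile normalization (0.05, 0.700) and TPM rescaling (0.0564).

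Mrpl48 and Mrpl33 had positive differences that did not pass. Mrpl48 (52443) stood at 17.9, 22.3 and 28.2 FPKM in the wild-type group and at 21.5, 30.3 and 31.8 FPKM in the MSTN+/- group, a limma difference of 0.35 (adjusted p = 0.0921). Mrpl33 (66845), the counterpart of bacterial L33, stood at 24.4, 36.3 and 36.5 FPKM and at 32.3, 40.5 and 43.5 FPKM, a limma difference of 0.28 (adjusted p = 0.134). Mrpl48 passed when MSTN+/- replicate 5 (limma adjusted p 0.0376) or wild-type replicate 3 (0.0375) was left out.

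On the lower side of the large subunit, Mrpl47 was the only gene without overlap. Mrpl47 (74600), the counterpart of bacterial L29 near the tunnel exit, stood at 15.5, 32.7 and 30.8 FPKM in the wild-type group and at 12.6, 13.8 and 15.4 FPKM in the MSTN+/- group. Wild-type replicate 1 was next to the MSTN+/- range and the other wild-type libraries were far above it. The limma difference was -0.81 (SE 0.20, adjusted p = 0.00825), it stayed past the threshold whichever library was left out, and against wild-type replicate 1 alone it was -0.15 (adjusted p = 0.33).

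The other large-subunit genes called lower had wild-type replicate 1 inside the MSTN+/- range. Mrpl40 (18100) stood at 30.5, 70.8 and 66.9 FPKM in the wild-type group and at 27.2, 31.1 and 37.6 FPKM in the MSTN+/- group, with a limma difference of -0.71 (SE 0.23, adjusted p = 0.0301). Mrpl18 (67681), a protein of the central protuberance, stood at 34.3, 64.5 and 65.5 FPKM and at 30.0, 33.5 and 37.8 FPKM, with a limma difference of -0.62 (SE 0.19, adjusted p = 0.0215). Mrpl39 (27393), whose sequence is related to threonyl-tRNA synthetase, stood at 21.3, 45.5 and 43.3 FPKM and at 18.9, 23.6 and 26.4 FPKM, with a limma difference of -0.57 (SE 0.21, adjusted p = 0.0491). The pattern was the same in Mrpl46 (67308), a mitochondrion-specific protein. It stood at 10.2, 19.0 and 16.9 FPKM and at 7.28, 10.4 and 11.1 FPKM, with a limma difference of -0.55 (SE 0.18, adjusted p = 0.0323). Mrpl37, which falls outside the rule for named genes and is given because the count is small, had 31.0, 52.6 and 49.4 FPKM against 26.2, 29.0 and 34.2 FPKM and a limma difference of -0.54 (adjusted p = 0.0221). All 5 calls were lost when wild-type replicate 2 (limma adjusted p 0.11 to 0.227) or wild-type replicate 3 (0.102 to 0.209) was left out. Single MSTN+/- libraries also decided Mrpl46 (0.0535 without replicate 1 and 0.0538 without replicate 5), Mrpl40 (0.0502 to 0.054 without replicates 1, 5, 6 or 7) and Mrpl39 (0.0598 to 0.082 without any 1 of the 7). Mrpl39 also missed it with a pseudocount of 0.1 (0.0505), no low-value filter (0.063) or robust empirical Bayes (0.0507).

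Mrpl15, Mrpl1 and Mrpl42 were high in wild-type replicates 2 and 3 and low in wild-type replicate 1, and did not pass. Mrpl15 (27395), the counterpart of bacterial L15, stood at 14.2, 49.7 and 47.7 FPKM in the wild-type group and at 15.6, 18.2 and 21.5 FPKM in the MSTN+/- group. Its wild-type values lay on both sides of the MSTN+/- range, and its limma difference was -0.76 (SE 0.32, adjusted p = 0.0773). Mrpl1 (94061), the protein of the L1 stalk that guides tRNA out of the ribosome, stood at 6.73, 20.2 and 17.1 FPKM and at 7.38, 8.19 and 9.75 FPKM, a limma difference of -0.64 (SE 0.26, adjusted p = 0.0681). Mrpl42 (67270), 1 of the 5 most abundant genes of the family, stood at 55.0, 150.0 and 135.9 FPKM and at 67.3, 77.5 and 86.9 FPKM, a limma difference of -0.44 (adjusted p = 0.191). It was the gene with the highest value in any library, and against wild-type replicate 1 alone its difference was 0.47. Without wild-type replicate 1, Mrpl15 (4.03e-06), Mrpl1 (1.45e-05) and Mrpl42 (2.80e-05) passed as lower in limma (adjusted p in parentheses).

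Mrpl54 (66047), a mitochondrion-specific protein, was the large-subunit gene in which wild-type replicates 2 and 3 were both below the other 8 libraries. It stood at 57.8, 38.5 and 43.4 FPKM in the wild-type group and at 48.3, 57.2 and 64.1 FPKM in the MSTN+/- group, a limma difference of 0.28 (adjusted p = 0.136). Without wild-type replicate 1 the difference was 0.44 (limma adjusted p = 0.00654). Mrpl54 was chosen for naming after its values were seen.

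In the small subunit, Mrps21 was the gene with the largest difference above 0. Mrps21 (66292), the counterpart of bacterial S21, stood at 66.9, 64.3 and 58.0 FPKM in the wild-type group and at 81.2, 89.1 and 102 FPKM in the MSTN+/- group. The groups did not overlap, and the limma difference was 0.53 (SE 0.10, adjusted p = 0.00259). Mrps34 (79044), a mitochondrion-specific protein needed for a stable small subunit, stood at 19.7, 38.2 and 28.9 FPKM and at 35.3, 39.9 and 43.5 FPKM, with a limma difference of 0.47 (SE 0.17, adjusted p = 0.0429). Its groups overlapped through wild-type replicate 2. Mrps34 missed the threshold without any 1 of the 7 MSTN+/- libraries (limma adjusted p 0.0534 to 0.0749), without wild-type replicate 1 (0.0876) and without wild-type replicate 3 (0.0939), as well as after median-of-ratios scaling (difference 0.26, limma adjusted p 0.153) and with no low-value filter (0.0527). Mrps26 (99045), also mitochondrion-specific, stood at 18.9, 17.4 and 21.7 FPKM and at 19.0, 26.2 and 28.9 FPKM, a limma difference of 0.36 (adjusted p = 0.0553, and 0.0179 without MSTN+/- replicate 4).

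Lower calls in the small subunit were led by Mrps18b. Mrps18b (66973) is a member of the small set of paralogues related to bacterial S18, and was counted here among the mitochondrion-specific genes. It stood at 48.1, 100.1 and 94.2 FPKM in the wild-type group and at 37.7, 39.3 and 44.2 FPKM in the MSTN+/- group. All 7 MSTN+/- values were below all 3 wild-type values, with means of 40.1 ± 2.61 (SD, n = 7) and 80.8 ± 28.5 FPKM (SD, n = 3). The limma difference was -0.92 (SE 0.20, adjusted p = 0.00415), it stayed past the threshold whichever library was left out, and against wild-type replicate 1 alone it was -0.26 (adjusted p = 0.0872). Mrps27 (218506), a pentatricopeptide repeat protein that binds RNA, stood at 16.1, 34.5 and 39.5 FPKM and at 12.8, 18.0 and 19.4 FPKM, with a limma difference of -0.76 (SE 0.25, adjusted p = 0.0321). Mrps22 (64655), whose mutations in humans cause cardiomyopathy, stood at 14.8, 24.1 and 22.96 FPKM and at 8.08, 13.1 and 17.3 FPKM, with a limma difference of -0.66 (SE 0.22, adjusted p = 0.0330). Wild-type replicate 1 lay inside the MSTN+/- range in both. Both calls were lost when wild-type replicate 2 (limma adjusted p 0.138 and 0.139) or wild-type replicate 3 (0.162 and 0.126) was left out. Single MSTN+/- libraries decided them as well, replicates 3, 5 or 7 for Mrps27 (0.0573, 0.056 and 0.0567) and replicates 3 or 4 for Mrps22 (0.059 and 0.0538), whose call library weights also ended (0.118).

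Mrps5 and Mrps6 were the genes that left the family furthest, in opposite directions. Mrps5 (77721), the counterpart of bacterial S5 near the entry of the mRNA, stood at 24.0, 87.8 and 85.1 FPKM in the wild-type group and at 24.8, 28.5 and 38.6 FPKM in the MSTN+/- group. Wild-type replicates 2 and 3 were 2.97 and 2.88 times the MSTN+/- mean, and wild-type replicate 1 was below every MSTN+/- library. The limma difference was -0.93 (SE 0.35, adjusted p = 0.0501), and without wild-type replicate 1 it was -1.53 (adjusted p = 7.71e-06). Mrps6 (121022), the counterpart of bacterial S6, stood at 46.9, 12.8 and 16.2 FPKM in the wild-type group and at 20.2, 25.6 and 34.6 FPKM in the MSTN+/- group. Here wild-type replicate 1 was above, and wild-type replicates 2 and 3 below, every MSTN+/- library. The limma difference was 0.27 (SE 0.33, adjusted p = 0.520) over all libraries, 0.82 (adjusted p = 0.00285) without wild-type replicate 1 and -0.82 against that library alone. Mrps31 (57312), a mitochondrion-specific protein, stood at 6.81, 24.3 and 25.7 FPKM and at 7.34, 10.9 and 13.1 FPKM, a limma difference of -0.59 (adjusted p = 0.181, and 0.000138 without wild-type replicate 1).

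**Figure D3:**
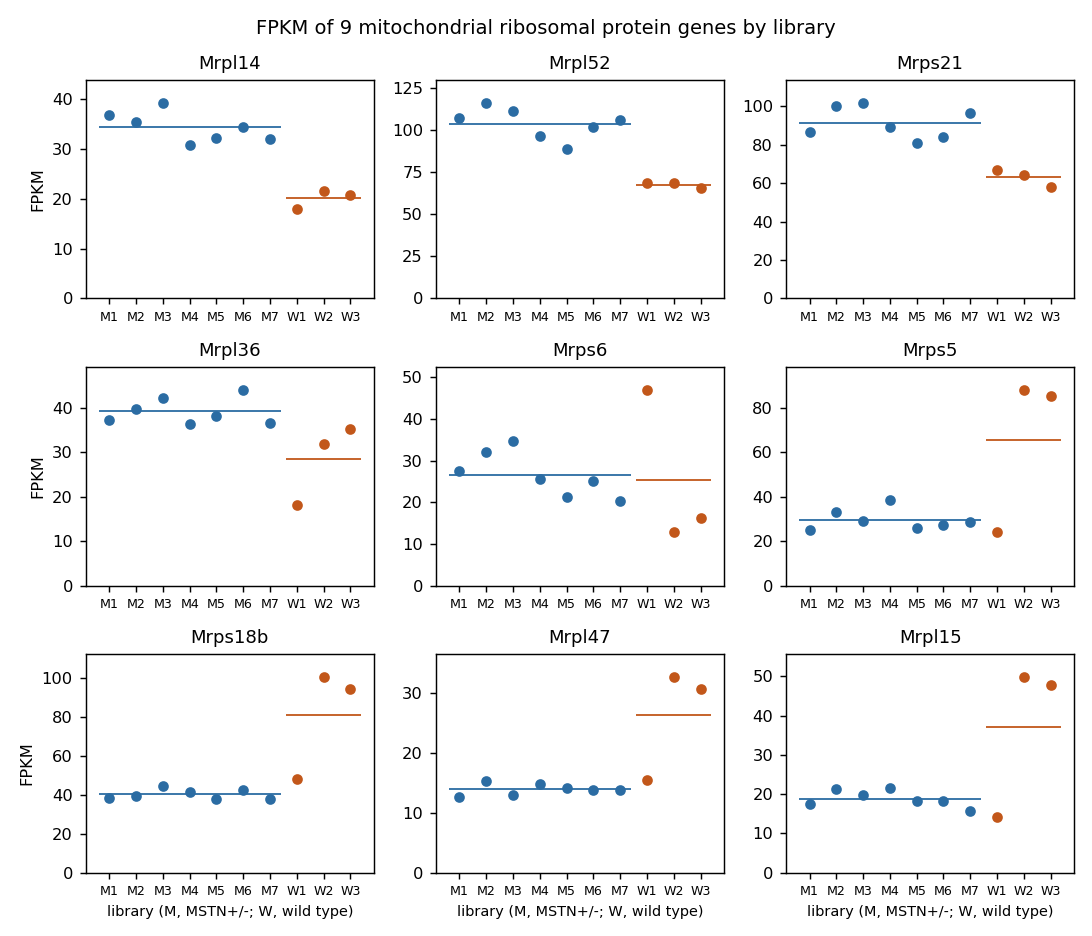
FPKM of 9 genes (vertical axis, from 0, with its own scale in each panel) in MSTN+/- replicates 1 to 7 (M1 to M7) and wild-type replicates 1 to 3 (W1 to W3); dots are libraries and lines are group means. Mrpl14, Mrpl52, Mrps21 and Mrpl36 are higher in every M library, Mrps18b and Mrpl47 are lower in every M library, and in Mrps6, Mrps5 and Mrpl15 the W libraries lie on both sides of the M libraries.

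Of the 18 calls, those of Mrpl14, Mrpl52 and Mrps21 stayed past the threshold in the same direction under all 19 alternative settings. Their limma adjusted p ran from 0.000119 to 0.00221, from 0.000241 to 0.0111 and from 0.000471 to 0.0393 over those settings. None of the 9 lower calls did, because all 9 missed the threshold against wild-type replicate 1 alone.

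The most abundant genes per length, next to Mrpl52, Mrpl42 and Mrps21, were Mrpl20 and Mrpl12. Mrpl20 (66448), the counterpart of bacterial L20, stood at 79.4, 87.5 and 95.9 FPKM in the wild-type group and at 58.0, 74.7 and 81.6 FPKM in the MSTN+/- group, a limma difference of -0.29 (adjusted p = 0.0866). Mrpl12 (56282) stood at 62.4, 85.6 and 101 FPKM and at 64.0, 74.1 and 83.4 FPKM, a limma difference of -0.15 (adjusted p = 0.413). Groups overlapped in both. The least abundant per length were Mrpl19, Mrpl57, Mrpl41, Mrps25 and Mrpl35.

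Mrpl19 (56284), the counterpart of bacterial L19, stood at 6.04, 9.97 and 10.2 FPKM in the wild-type group and at 5.07, 6.57 and 7.28 FPKM in the MSTN+/- group, a limma difference of -0.37 (adjusted p = 0.0825). Mrpl35 (66223), the counterpart of bacterial L35, stood at 7.46, 13.7 and 14.8 FPKM and at 8.50, 9.16 and 10.6 FPKM, a limma difference of -0.29 (adjusted p = 0.207). Wild-type replicates 2 and 3 were above every MSTN+/- library in both, and wild-type replicate 1 was below them in Mrpl35 and inside their range in Mrpl19. Mrpl57 (67840), a mitochondrion-specific protein, stood at 5.66, 7.94 and 7.88 FPKM and at 6.99, 7.61 and 8.47 FPKM, a limma difference of 0.11 (adjusted p = 0.446). Mrps25 (64658), also mitochondrion-specific, stood at 8.38, 9.74 and 9.45 FPKM and at 9.43, 9.93 and 10.6 FPKM, a limma difference of 0.11 (adjusted p = 0.346). In these the MSTN+/- values and wild-type replicates 2 and 3 overlapped, and the sign of both differences turned after median-of-ratios scaling (-0.07 and -0.09).

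Some subunits of the same ribosome carry other symbols. Of 5, limma called 2 lower and 0 higher, against 12.8% and 31.8% of all tested genes, with a median difference of -0.06. Without wild-type replicate 2 or 3 it called 0 lower, against 5.7% of all tested genes. Ptcd3, a pentatricopeptide repeat protein of the small subunit, stood at 24.3, 60.9 and 64.0 FPKM in the wild-type group and at 18.3, 24.4 and 27.4 FPKM in the MSTN+/- group, with a limma difference of -0.92 (SE 0.26, adjusted p = 0.0176). Dap3, the GTP-binding protein of the small subunit, stood at 12.6, 23.1 and 23.1 FPKM and at 11.0, 12.3 and 14.3 FPKM, with a limma difference of -0.56 (SE 0.18, adjusted p = 0.0268). Both had wild-type replicate 1 inside the MSTN+/- range, and both calls were lost when wild-type replicate 2 (limma adjusted p 0.0936 and 0.131) or wild-type replicate 3 (0.0961 and 0.13) was left out. Aurkaip1 stood at 35.2, 53.5 and 48.3 FPKM and at 41.7, 49.7 and 55.0 FPKM, a limma difference of 0.13 (adjusted p = 0.455). Ict1 (Mrpl58), Chchd1 and Gadd45gip1, named after their values were seen, had limma differences of 0.04, -0.06 and 0.04 and did not pass.

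Genes that build the mitochondrial ribosome and modify its RNA showed the family's order of libraries. Relative to the MSTN+/- mean, their median was -0.37, 0.40 and 0.40 on the log2 scale in wild-type replicates 1, 2 and 3, where the ribosomal protein genes had -0.34, 0.36 and 0.36 and all tested genes -0.27, -0.14 and -0.16. Of 30 genes, limma called 2 higher and 4 lower, against 31.8% and 12.8% of all tested genes. The lower count was 17 without wild-type replicate 1, against 31.9% of all tested genes. It was 1 without wild-type replicate 2 and 0 without wild-type replicate 3, against 5.71% and 5.70% of all tested genes. Mpv17l2, which takes part in assembly of the ribosome, was higher, with 20.6, 11.3 and 11.1 FPKM in the wild-type group and 19.7, 22.02 and 26.0 FPKM in the MSTN+/- group (limma difference 0.68, adjusted p = 0.0118). Mettl15, a methyltransferase of the small ribosomal RNA, was higher, with 2.10, 2.50 and 2.01 FPKM against 2.78, 3.49 and 4.09 FPKM (limma difference 0.47, adjusted p = 0.0139). Trub2, a pseudouridine synthase, was lower, with 5.84, 8.79 and 9.56 FPKM against 4.83, 5.50 and 6.22 FPKM (limma difference -0.47, adjusted p = 0.0221). Leaving out wild-type replicate 2 ended the calls of Mpv17l2 (limma adjusted p 0.0643) and Trub2 (0.0953), and leaving out wild-type replicate 3 those of Mpv17l2 (0.0642), Mettl15 (0.0574) and Trub2 (0.11). Mpv17l2 also missed the threshold after median-of-ratios scaling (limma adjusted p 0.0819), and Mettl15 after median-of-ratios scaling (difference 0.32, limma adjusted p 0.0648) and quantile normalization (0.0081, 0.965).

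Translation factors of mitochondria had list medians of -0.28, 0.56 and 0.35 in the wild-type replicates. Of 17, limma called 1 higher and 4 lower, against 31.8% and 12.8% of all tested genes. Without wild-type replicate 1 it called 2 higher and 10 lower, against 42.2% and 31.9% of all tested genes. Without wild-type replicate 2 or 3 it called 2 lower, against 5.7% of all tested genes. Gfm1, the elongation factor that moves the ribosome along the mRNA, stood at 25.6, 44.3 and 46.0 FPKM in the wild-type group and at 14.0, 20.8 and 21.5 FPKM in the MSTN+/- group, with no overlap (limma difference -0.92, SE 0.19, adjusted p = 0.00384). Lrpprc, which stabilises mitochondrial mRNAs, stood at 19.0, 45.6 and 49.9 FPKM and at 9.60, 13.8 and 16.7 FPKM, also with no overlap (limma difference -1.29, SE 0.27, adjusted p = 0.00401). Mtrf1l, a release factor, was higher, with 1.99, 1.33 and 1.78 FPKM against 2.60, 2.82 and 3.26 FPKM (limma difference 0.54, adjusted p = 0.00486). These 3 calls stayed past the threshold whichever library was left out. Against wild-type replicate 1 alone they missed it (limma adjusted p 0.141, 0.157 and 0.0622), and Mtrf1l also missed it after quantile normalization (difference 0.083, limma adjusted p 0.632).

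Mitochondrial aminoacyl-tRNA synthetases and their partners had list medians of -0.32, 0.34 and 0.37 in the wild-type replicates. Of 20, limma called 2 higher and 4 lower, against 31.8% and 12.8% of all tested genes. Without wild-type replicate 1 it called 3 higher and 11 lower, against 42.2% and 31.9% of all tested genes. The lower count was 0 without wild-type replicate 2 or 3, against 5.7% of all tested genes. It was 1 or 2 without any 1 of the MSTN+/- libraries, where the share of all tested genes was not computed. Gatc, a subunit of the amidotransferase that completes glutaminyl-tRNA, was higher, with 10.9, 8.43 and 6.35 FPKM in the wild-type group and 14.2, 15.5 and 17.1 FPKM in the MSTN+/- group (limma difference 0.82, SE 0.14, adjusted p = 0.00112). Aars2, the mitochondrial alanyl-tRNA synthetase, was lower, with 5.94, 14.6 and 16.4 FPKM against 4.30, 5.18 and 6.97 FPKM (limma difference -0.97, adjusted p = 0.0126). Hars2, the histidyl enzyme, was higher, with 5.55, 5.70 and 5.26 FPKM against 6.45, 7.01 and 7.24 FPKM (limma difference 0.28, adjusted p = 0.0262), a difference that turned to -0.06 after quantile normalization. The call of Aars2 was lost when wild-type replicate 2 (limma adjusted p 0.0671) or wild-type replicate 3 (0.0703) was left out, and Hars2 without MSTN+/- replicates 1 (0.0525) or 6 (0.0531) and without wild-type replicates 2 (0.0525) or 3 (0.0847). Hars2 also missed it after median-of-ratios scaling (difference 0.098, limma adjusted p 0.419) and TPM rescaling (0.07) and with library weights (0.061).

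Genes for the transcription and replication of mitochondrial DNA, which supplies the ribosomal RNAs, had list medians of -0.44, 0.45 and 0.70. Of 14, limma called 1 higher and 1 lower, against 31.8% and 12.8% of all tested genes. Without wild-type replicate 1 it called 1 higher and 10 lower, against 42.2% and 31.9% of all tested genes. None was lower without wild-type replicate 2 or 3, against 5.7% of all tested genes. Polrmt, the mitochondrial RNA polymerase, was lower, with 9.22, 14.2 and 14.3 FPKM in the wild-type group and 7.53, 8.37 and 8.91 FPKM in the MSTN+/- group (limma difference -0.52, adjusted p = 0.0108). Top1mt, the mitochondrial topoisomerase, was higher, with 5.63, 4.79 and 5.06 FPKM against 6.98, 7.44 and 9.82 FPKM (limma difference 0.50, adjusted p = 0.00643). Polg, the catalytic subunit of the DNA polymerase, had 13.1, 13.3 and 13.7 FPKM against 9.23, 11.0 and 12.4 FPKM (limma difference -0.26, adjusted p = 0.0611). None of these 3 genes overlapped between the groups. They were named for the smallest p-values of their list, which favours such separation. All MSTN+/- values were above all wild-type values in 25.2% of all tested genes, and below them in 6.86%. The call of Polrmt was lost when wild-type replicate 2 (limma adjusted p 0.0577) or 3 (0.0561) was left out. Top1mt missed the threshold after quantile normalization (difference 0.16, limma adjusted p 0.330) and median-of-ratios scaling (0.32, 0.0658) and against wild-type replicate 1 alone (0.0707).

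Regulators of mitochondrial biogenesis held the largest differences of these lists. List medians were -0.02, 0.96 and 1.118 in the wild-type replicates. Of 11 tested out of 14, limma called 2 higher and 5 lower, against 31.8% and 12.8% of all tested genes. Without wild-type replicate 1 it called 2 higher and 8 lower, against 42.2% and 31.9% of all tested genes. Without wild-type replicate 2 or 3 it called 2 higher and 2 lower, against 25% and 5.7% of all tested genes. Myc, a transcription factor that drives genes of ribosomes and mitochondria, stood at 43.2, 25.1 and 22.0 FPKM in the wild-type group and at 250.5, 284 and 378.9 FPKM in the MSTN+/- group (limma difference 3.29, SE 0.20, adjusted p = 1.19e-06). Esrra, a nuclear receptor that activates oxidative genes, stood at 8.20, 8.85 and 9.71 FPKM and at 14.4, 16.1 and 17.4 FPKM (limma difference 0.78, SE 0.10, adjusted p = 0.000205). Pprc1, a coactivator related to PGC-1, was lower, with 30.4, 69.2 and 69.6 FPKM against 19.96, 21.6 and 25.6 FPKM (limma difference -1.20, SE 0.23, adjusted p = 0.00231). In all 3 the groups did not overlap, also in wild-type replicate 1, and the calls held under all 19 alternatives. These genes too were named for the smallest p-values of their list, which favours such separation. Among all tested genes, 25.2% had all MSTN+/- values above all wild-type values and 6.86% had them below.

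Genes of mitochondrial protein import, the route by which the ribosomal proteins enter, had list medians of -0.19, 0.45 and 0.48. Of 29, limma called 2 higher and 10 lower, against 31.8% and 12.8% of all tested genes. Without wild-type replicate 1 it called 1 higher and 22 lower, against 42.2% and 31.9% of all tested genes. It called 5 lower without wild-type replicate 2 or 3, against 5.7% of all tested genes. Hspa9, the matrix chaperone that pulls proteins in, stood at 300.1, 306 and 305 FPKM in the wild-type group and at 121, 139.5 and 161 FPKM in the MSTN+/- group (limma difference -1.14, SE 0.10, adjusted p = 1.72e-05). Timm17a, a part of the inner-membrane channel, stood at 62.2, 67.8 and 74.5 FPKM and at 40.2, 45.0 and 53.2 FPKM (limma difference -0.54, SE 0.11, adjusted p = 0.00348). Both were even over the 3 wild-type libraries, unlike most of the ribosomal protein genes, and both calls held under all 19 alternatives. Hspd1, the matrix chaperonin, stood at 197, 405 and 425 FPKM and at 86.8, 143 and 164 FPKM (limma difference -1.23, SE 0.26, adjusted p = 0.00366), and missed the threshold only against wild-type replicate 1 alone (0.151).

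Cytosolic ribosomal protein genes followed another order. Their list medians were -0.71, -0.09 and -0.04 in the wild-type replicates, so wild-type replicate 1 was low, as in the mitochondrial family, while wild-type replicates 2 and 3 were near the MSTN+/- mean. Of 82 tested, limma called 15 higher and 0 lower, against 31.8% and 12.8% of all tested genes, and 67 did not pass. Without wild-type replicate 1 it called 13 higher and 12 lower, against 42.2% and 31.9% of all tested genes. Against that library alone the median difference was 0.71, and 0.26 over all tested genes. After median-of-ratios scaling the counts were 4 higher and 2 lower, against 23.2% and 23.0% of all tested genes. The median difference was then 0.05 in place of 0.27. Rps19 stood at 369, 471 and 465 FPKM in the wild-type group and at 578, 675 and 721 FPKM in the MSTN+/- group, with no overlap (limma difference 0.62, adjusted p = 0.00179). Rpl39 stood at 125, 178 and 180.2 FPKM and at 228, 251 and 278 FPKM (limma difference 0.64, adjusted p = 0.00332). It was also higher in every MSTN+/- library. Levels of cytosolic ribosomal protein genes are uncertain, because near-identical pseudogene copies can share their reads.

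**Figure D4:**
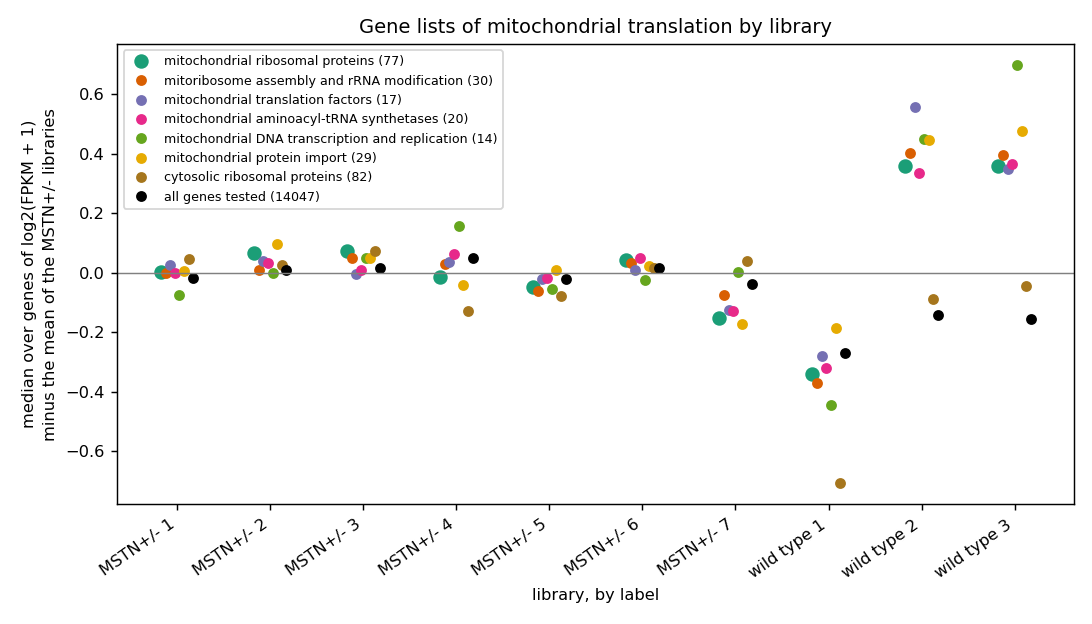
Median over the genes of each list of log2(FPKM + 1) minus the gene's mean in the MSTN+/- libraries (vertical axis, log2 units), by library (horizontal axis); each dot is 1 list, with its number of tested genes in the key. In wild-type replicates 2 and 3 the mitochondrial lists shown lie between 0.34 and 0.70 and the cytosolic ribosomal proteins at -0.09 and -0.04, and in wild-type replicate 1 every list shown is below 0.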

How the data were processed

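Each gene and library had 1 FPKM value in the deposited table, calculated by the authors and written with 2 decimals; the unit is the one named in the file headers. No aligner, counting tool, strand setting, genome build or filter is given in the sources used here, so reads shared between overlapping or near-identical genes cannot be separated. Total depth is unknown. Relative depth was estimated from steps of low values, searched within a log2 ratio of 1.

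Groups came from the genotype label, and replicate numbers only name libraries. limma 3.58.1 (R 4.3.3) was fitted to log2(FPKM + 1), with an intensity trend, no covariate and Benjamini-Hochberg adjustment, for the 14047 genes with at least 1 FPKM in 3 or more libraries. Differences are MSTN+/- minus wild type on that scale, which understates changes of low genes. The procedure was tested on simulated data in which all libraries of a gene had the same spread. That test does not cover the wider spread of the wild-type libraries here.

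Named genes were the 12 largest and 12 smallest differences, the 8 widest departures, the 5 highest and 5 lowest levels, and the 3 smallest p-values of each companion list, with exceptions stated; 1 gene that the rule names is not reported here. Members, lists and alternatives were chosen with earlier results of these data known. The alternatives were other scalings (median-of-ratios, TPM, quantile), another pseudocount (0.1), other filters (none, or a mean of 5 FPKM), robust empirical Bayes, library weights (whose estimate stopped before convergence), leaving out each library, and wild-type replicate 1 as the only wild-type library. For the family mean, the median over genes was also tried. No sequences are shown.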

Additional observations from a re-analysis of the deposited data

Results flagged for a closer look

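Of 34 items tested in the group of 7 MSTN+/- libraries, 2 had a single library far from the others by Dixon's criterion, which chance gives in about 1 of 20 groups. Mrpl46 stood at 7.28 FPKM in MSTN+/- replicate 7, below the other 6. Mrpl48 stood at 21.5 FPKM in MSTN+/- replicate 5, below the other 6.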

How the results depend on the processing

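No paired analysis was possible because the labels give no replicate numbers. The count of genes called higher was 9 and became 3 with median-of-ratios scaling, 5 with no low-value filter, 5 with library weights and 33 when wild-type replicate 1 was the only wild-type library. Of all tested genes, 31.8% were called higher in the main fit, 23.2% with median-of-ratios scaling and 34.6% with library weights. The share against wild-type replicate 1 alone is given above, and none was computed with no low-value filter. With each library left out in turn, the higher count of the family ran from 4 to 9. It was 4 or 5 without MSTN+/- replicates 1, 2, 3, 6 or 7, and no share was computed without any MSTN+/- library. Without wild-type replicate 1, 2 or 3 the shares were 42.2%, 25.2% and 24.8%. The count called lower was 9 (12.8%) and became 32 with median-of-ratios scaling (23.0%) and 17 with TPM rescaling (16.4%). It was 17 with quantile normalization (24.9%) and 31 with library weights (24.0%). With each library left out, the lower count ran from 2 without wild-type replicate 2 or 3 (5.7%) to 44 without wild-type replicate 1 (31.9%). It was 5 without MSTN+/- replicate 5. The median difference of the family, -0.15, became -0.36 with median-of-ratios scaling and 0.34 against wild-type replicate 1 alone, and ran from -0.36 to 0.0048 with each library left out. The median over all tested genes, 0.17 here, was -0.06 with quantile normalization and -0.00 with median-of-ratios scaling. With the same scaling the genes called lower went from 4 to 11 in ribosome assembly, 4 to 7 in translation factors, 1 to 3 in mitochondrial DNA expression and 10 to 17 in import. The share of all tested genes called lower went from 12.8% to 23.0%. Median-of-ratios scaling moved the family mean relative to its 10-library mean from 0.020 to -0.058 in MSTN+/- replicate 3 and from -0.030 to -0.16 in MSTN+/- replicate 4. Both moves were smaller than the pooled within-group SD of the family mean (0.21), which is widened by the wild-type libraries (SD 0.39). The SD over the MSTN+/- libraries alone was 0.077. Against that SD, the move in MSTN+/- replicate 3 was about as large and the move in MSTN+/- replicate 4 was larger.

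Of 1062 pairs of a named gene and an alternative, 858 kept direction and side of the threshold. Another 134 lost a call and 48 gained one with the sign kept, and 22 changed sign. A pair that changed sign was counted only as such, also where a call was lost or gained. None of the 22 had a call in both the main fit and the alternative, and alternatives were not compared with each other. Median-of-ratios scaling turned Mrps25 (-0.090), Aurkaip1 (-0.083) and Mrpl57 (-0.074). Quantile normalization turned Mrps25 (-0.14), Mrpl57 (-0.18) and Hars2 (-0.063). With each library left out in turn, Mrps6 ran from -0.079 to 0.82, Mrpl12 from -0.34 to 0.0048, Aurkaip1 from -0.045 to 0.25 and Mrpl57 from -0.026 to 0.19. Against wild-type replicate 1 alone, Mrps6 (-0.82), Mrpl40 (0.052), Mrps27 (0.0011), Mrpl39 (0.12), Mrpl15 (0.38), Mrpl12 (0.23), Mrpl19 (0.068), Mrps31 (0.57), Mrpl35 (0.28), Mrpl42 (0.47), Mrps5 (0.27) and Mrpl1 (0.25) turned. The cause of these changes was not tested. Depth is unknown, so no counting error could be given.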
